A study of Mus musculus with 10 samples.

Results

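The genes described here are 32 mouse genes of glucose uptake, glycolysis, lactate metabolism and the entry of pyruvate into the mitochondrion, chosen by name from glucose transporters to monocarboxylate transporters. They are 32 of the 52636 gene identifiers in the count table, and all 32 were among the 17286 genes with enough counts to be tested. The series holds poly(A)-selected RNA-seq of 10 tumours labelled as mouse melanoma and compares them by genotype. The 6 Arf6Q67L tumours have the genotype BrafCA;Cdkn2af/f; Arf6Q67L, and the 4 control tumours have the genotype BrafCA;Cdkn2af/f, so both groups carry the conditional oncogenic Braf allele and the floxed Cdkn2a tumour suppressor locus. Arf6Q67L encodes a constitutively active, GTP-bound mutant of ARF6, a small GTPase of membrane traffic. The labels do not give the promoter that drove recombination, any treatment, or the age and sex of the mice, and they do not say whether each tumour came from a separate animal. P-values therefore measure the spread between these tumours.

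Glycolysis splits glucose into pyruvate in the cytosol. Pyruvate is then either reduced to lactate by lactate dehydrogenase and exported, or carried into mitochondria and oxidised by the pyruvate dehydrogenase complex, which pyruvate dehydrogenase kinases switch off. Most steps have several isoenzymes that differ between tissues, and many of the genes are induced in low oxygen by hypoxia-inducible factors (HIFs). In melanoma, as in many tumours, high glycolytic activity and lactate export are well known.

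To show what ACGTG, a form of the HIF-bound core motif, looks like in these genes, 5 promoter windows are printed below. First come 3 well-known HIF targets (Ldha, Pgk1 and Slc2a1). The 2 genes with the lowest p-values in the comparison of tumours (Aldoc and Pdha1) follow. Each window is 300 bases of RefSeq sequence on the build GRCm38.p6, 250 before the transcription start and 50 after it, read on the gene's own strand. The windows are chr7:46845554-46845853 (plus strand) for Ldha, chrX:106186850-106187149 (plus) for Pgk1, chr4:119108495-119108794 (plus) for Slc2a1, chr11:78322823-78323122 (plus) for Aldoc and chrX:160138381-160138680 (minus) for Pdha1. Capitals mark the motif ACGTG or, on the other strand, its reverse complement CACGT; where both strands match, the matches overlap as CACGTG.
Ldha: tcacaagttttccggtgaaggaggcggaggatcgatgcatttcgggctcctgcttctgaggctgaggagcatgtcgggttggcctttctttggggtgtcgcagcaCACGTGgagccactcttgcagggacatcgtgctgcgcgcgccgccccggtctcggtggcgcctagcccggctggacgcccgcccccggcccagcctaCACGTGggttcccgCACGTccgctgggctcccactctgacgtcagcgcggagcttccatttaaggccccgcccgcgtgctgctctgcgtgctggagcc
Pgk1: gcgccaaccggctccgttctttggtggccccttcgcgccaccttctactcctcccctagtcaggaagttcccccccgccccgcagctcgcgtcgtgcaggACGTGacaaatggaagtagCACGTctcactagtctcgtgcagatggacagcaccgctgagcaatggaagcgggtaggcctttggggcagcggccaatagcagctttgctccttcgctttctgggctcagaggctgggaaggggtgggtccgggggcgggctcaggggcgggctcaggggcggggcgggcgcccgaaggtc
Slc2a1: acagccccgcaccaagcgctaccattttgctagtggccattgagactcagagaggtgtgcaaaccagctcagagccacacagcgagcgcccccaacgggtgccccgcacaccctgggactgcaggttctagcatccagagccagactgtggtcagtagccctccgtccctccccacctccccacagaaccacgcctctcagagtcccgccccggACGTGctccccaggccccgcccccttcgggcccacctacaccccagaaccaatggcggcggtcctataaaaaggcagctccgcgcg
Aldoc: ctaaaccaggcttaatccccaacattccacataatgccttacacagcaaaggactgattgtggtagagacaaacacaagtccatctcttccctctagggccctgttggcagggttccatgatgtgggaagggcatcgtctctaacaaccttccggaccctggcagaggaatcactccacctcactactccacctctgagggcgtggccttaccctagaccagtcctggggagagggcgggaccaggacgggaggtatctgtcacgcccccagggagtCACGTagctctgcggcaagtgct
Pdha1: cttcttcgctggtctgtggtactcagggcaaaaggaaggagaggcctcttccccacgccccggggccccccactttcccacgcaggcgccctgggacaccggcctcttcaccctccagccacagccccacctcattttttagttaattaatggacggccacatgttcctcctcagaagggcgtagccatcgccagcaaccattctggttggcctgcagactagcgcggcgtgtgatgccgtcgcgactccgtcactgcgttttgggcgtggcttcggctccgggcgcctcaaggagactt
The Ldha window held 5 matches, counting overlapping ones on both strands, the Pgk1 window held 2, the Slc2a1 and Aldoc windows held 1 each and the Pdha1 window held 0. The motif was present in the first window of 15 of the 31 genes that had one, 48.4%, against 19.7% of the first windows of 27025 mouse genes. Further windows of a gene were not counted, and Ldha and Aldoc, for example, had 2 each. Only ACGTG and its reverse complement were counted. The form GCGTG was not, although it or its reverse complement occurs in the Ldha, Slc2a1, Aldoc and Pdha1 windows. These counts and shares do not cover it. A match describes the letters of the window and does not show that a factor binds there.

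Library totals lay between 28635414 and 40869091 counts, so that 3 counts, the limit that a count of 0 allows, correspond to between 0.0761 and 0.106 CPM, a gene's count scaled by the size of its library, for counting error only. The melanoma label could be checked against 9 melanocyte markers. Tyr and Dct were at 0 counts in all 10 tumours, so these pigment enzymes were not detectable at this depth. Mlana, Tyrp1, Mc1r and Pmel reached at most 0.101, 0.0521, 0.0335 and 0.940 CPM in any tumour. Sox10 lay between 0.0629 and 2.83 CPM and S100b between 0.0958 and 7.11 CPM. Mitf averaged 17.0 ± 5.57 CPM in Arf6Q67L tumours (SD, n = 6) and 16.6 ± 4.18 CPM in controls (SD, n = 4). Marker sums of other cell types varied widely: skeletal muscle markers summed to between 18.1 and 874 CPM in Arf6Q67L tumours and between 4.37 and 1316 CPM in controls, and macrophage markers to between 1160 and 2321 CPM in Arf6Q67L tumours and between 1735 and 4517 CPM in controls. Mast cell markers summed to between 60.5 and 1050.3 CPM in Arf6Q67L tumours and between 18.9 and 98.3 CPM in controls, with 8 of 8 log2 fold changes positive (median 3.08, DESeq2 called 5 higher). T cell markers summed to between 29.9 and 131 CPM in Arf6Q67L tumours and between 61.9 and 437 CPM in controls, with 10 of 10 negative (median -2.01), and endothelial markers to between 80.9 and 273 CPM in Arf6Q67L tumours and between 134 and 322 CPM in controls, with 7 of 8 negative (median -0.74, DESeq2 called 2 lower). Neutrophil markers were negative in 5 of 5 tested (DESeq2 called 1 lower) and adipocyte markers in 6 of 6. Macrophage markers were negative in 8 of 11, and DESeq2 called 1 of them higher (Mertk). Over all genes tested 49.7% of log2 fold changes were positive, and DESeq2 called 0.966% higher and 1.42% lower. By edgeR 0 marker genes in these lists were called, and the part of these markers in the results below was not tested. Xist counts exceeded those of Y-linked genes in 3 of 6 Arf6Q67L tumours and in 1 of 4 controls, the tumour numbered control 1.

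In these tumours RNA of the glycolytic core was abundant in both genotypes, and no gene of the 32 passed the test across all genes. The 2 genes with the lowest p-values had fold changes of opposite sign: Pdha1, the catalytic pyruvate dehydrogenase subunit, was 1.28-fold as high in Arf6Q67L tumours as in controls, and Aldoc, the brain-type aldolase, was 0.332-fold as high. Both were called by DESeq2 and by no other method run. In simulated data with 2-fold and 4-fold changes, DESeq2 made more false calls than edgeR, while edgeR missed most of the 2-fold changes. Changes as small as that of Pdha1 were not simulated. With edgeR's quasi-likelihood test and Benjamini-Hochberg adjustment over 17286 genes, adjusted p-values of the 32 genes lay between 0.273 and 0.989, and 0 of all 17286 genes (0%) passed the threshold of 0.05. At an unadjusted p under 0.05, 2 of the 32 were higher in Arf6Q67L tumours (Pdha1 and Dlat), against 4.65% of all genes tested, and 2 were lower (Aldoc and Pfkfb3), against 7.05% of all genes. DESeq2 called 1 of the 32 higher, against 0.966% of all genes, and 1 lower, against 1.42%. Pdha1 was the only one of the 32 whose groups did not overlap, higher in all 6 Arf6Q67L tumours, against 1.15% of all genes that were higher without overlap; 0 of the 32 were lower without overlap, against 1.28% of all genes. Log2 fold changes (Arf6Q67L over control) were positive for 7 of the 32 and negative for 25, with a median of -0.14, against 49.7% positive and a median of -0.0018 over all genes tested. That balance depended on the fit. Without control 1, 15 were positive and 17 negative, with a median of -0.025. With the sex of the mouse, read from Xist and Y-linked counts, as a term, 8 were positive and 24 negative, with a median of -0.23. In that fit 10 of the 32 were lower at an unadjusted p under 0.05, against 5.93% of all genes, and 0 passed adjustment. Control 1 was the only control with Xist above the Y-linked genes. Among controls, what is particular to that tumour and what goes with sex therefore cannot be told apart. Values of single genes without control 1, given below, have the same limit. In bulk tumour RNA, fewer cells of a type and less RNA per cell cannot be told apart.

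**Figure D1:**
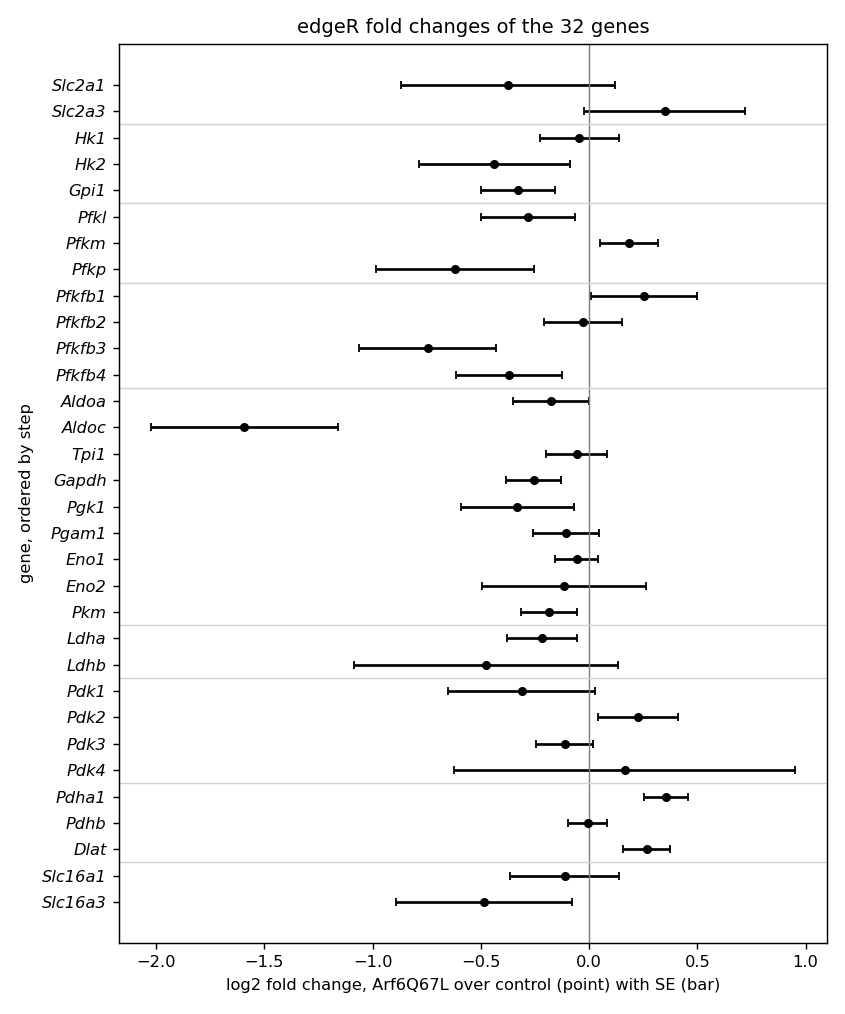
Log2 fold change of each of the 32 genes, Arf6Q67L over control (x axis), with its standard error from edgeR (bar), ordered from uptake at the top to transport at the bottom. Aldoc lies farthest to the left at -1.59, Pdha1 and Dlat lie to the right of 0 with narrow bars, and most of the glycolytic core sits a little left of 0.

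Glucose uptake is set by the facilitative transporters Slc2a1 (GLUT1), found in most cells, and Slc2a3 (GLUT3), the high-affinity form known from neurons. Slc2a1 (chr4:119108711-119137983, GRCm38) ranged between 56.5 and 292 CPM with a median of 115 CPM in Arf6Q67L tumours, against 355, 74.7, 142 and 134 CPM in controls 1 to 4. The groups overlapped across nearly their whole range, with Arf6Q67L tumour 3 and control 1 far above the other tumours of their groups. The log2 fold change of -0.37 (SE 0.49) had an edgeR adjusted p of 0.808, and it was 0.22 without control 1. Slc2a3 averaged 71.4 ± 32.2 CPM in Arf6Q67L tumours and 56.0 ± 22.3 CPM in controls (SD, n = 6 and 4); the log2 fold change was 0.35 (SE 0.37).

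Hexokinases trap glucose in the cell by phosphorylating it, and glucose-6-phosphate isomerase (Gpi1) converts the product to fructose 6-phosphate. All 3 of these genes had negative fold changes and 0 passed the test. Hk2, the inducible hexokinase of muscle and tumours, ranged between 13.8 and 55.7 CPM with a median of 32.3 CPM in Arf6Q67L tumours, against 61.5, 30.9, 37.6 and 47.4 CPM in controls 1 to 4. Arf6Q67L tumours 2 and 6 lay below all controls and the other 4 lay among them, a log2 fold change of -0.44 (SE 0.35, edgeR adjusted p 0.667; -0.24 without control 1). Hk1, the constitutive form, averaged 180.5 ± 47.7 CPM in Arf6Q67L tumours and 186 ± 14.2 CPM in controls, with a log2 fold change of -0.045 (SE 0.18). Gpi1 (chr7:34201330-34230336) ranged between 332 and 506 CPM with a median of 383 CPM in Arf6Q67L tumours, against 623, 403, 437 and 564 CPM in controls 1 to 4. Of the Arf6Q67L tumours 3 lay below all controls, and the log2 fold change was -0.33 (SE 0.17, unadjusted p 0.0807, edgeR adjusted p 0.480; -0.21 without control 1).

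Phosphofructokinase commits sugar to glycolysis and is assembled from liver-type (Pfkl), muscle-type (Pfkm) and platelet-type (Pfkp) subunits. Pfkp (chr13:6579768-6648777) ranged between 27.5 and 131 CPM with a median of 73.1 CPM in Arf6Q67L tumours, against 138, 125, 76.7 and 137 CPM in controls 1 to 4. Controls 2 and 3 lay within the Arf6Q67L range, and the log2 fold change was -0.62 (SE 0.36, unadjusted p 0.120, edgeR adjusted p 0.545). Pfkl averaged 162 ± 30.1 CPM in Arf6Q67L tumours and 197 ± 73.5 CPM in controls, where control 1 stood at 307 CPM and the others between 158 and 163 CPM. Its log2 fold change of -0.28 (SE 0.22) was 0.017 without that tumour. Pfkm averaged 66.2 ± 11.1 CPM in Arf6Q67L tumours and 58.3 ± 6.93 CPM in controls; the log2 fold change was 0.18 (SE 0.13).

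Fructose 2,6-bisphosphate, the strongest activator of phosphofructokinase, is made and removed by the bifunctional PFKFB enzymes, of which PFKFB3 has the most kinase activity. Pfkfb3 (chr2:11471433-11554077) ranged between 18.1 and 42.0 CPM with a median of 25.1 CPM in Arf6Q67L tumours, against 62.4, 39.3, 24.0 and 58.7 CPM in controls 1 to 4. Controls 1 and 4 lay above every Arf6Q67L tumour, while controls 2 and 3 lay inside the Arf6Q67L range. The log2 fold change was -0.74 (SE 0.32, unadjusted p 0.0398), with adjusted p-values of 0.408 by edgeR and 0.269 by DESeq2. Pfkfb4 (chr9:108991778-109032228), an isoform known from testis and induced by hypoxia, ranged between 9.37 and 19.1 CPM with a median of 13.7 CPM in Arf6Q67L tumours, against 13.6, 21.3, 14.8 and 23.7 CPM in controls 1 to 4. Arf6Q67L tumours 1, 3 and 6 lay below all controls, and the log2 fold change was -0.37 (SE 0.25, edgeR adjusted p 0.595). Pfkfb1 had a log2 fold change of 0.25 (SE 0.24) at a mean of 5.70 ± 1.55 CPM in Arf6Q67L tumours and 4.78 ± 0.766 CPM in controls, and Pfkfb2 had one of -0.028 (SE 0.18).

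Aldolase splits fructose 1,6-bisphosphate into triose phosphates. Aldoc (chr11:78322968-78327781), the isoform of brain and other nervous tissue, stood at 1.92, 2.54, 9.23, 4.11, 3.91 and 3.23 CPM in Arf6Q67L tumours 1 to 6, against 7.28, 10.2, 13.8 and 18.9 CPM in controls 1 to 4. Arf6Q67L tumours 1, 2, 4, 5 and 6 lay below every control, while Arf6Q67L tumour 3 lay above control 1. The means were 4.15 ± 2.62 CPM in Arf6Q67L tumours and 12.5 ± 5.01 CPM in controls (SD, n = 6 and 4); the log2 fold change was -1.59 (SE 0.43). The adjusted p-value was 0.273 by edgeR and 0.0230 by DESeq2, whose log2 fold change was -1.58. With 1 tumour left out at a time, the log2 fold change lay between -1.98 (without Arf6Q67L tumour 3) and -1.32 (without control 4). Aldoa, the ubiquitous isoform, supplied nearly all aldolase RNA, at 755 ± 118 CPM in Arf6Q67L tumours and 852 ± 200.3 CPM in controls, for a log2 fold change of -0.17 (SE 0.17; -0.035 without control 1).

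From triose phosphate to pyruvate, all 7 genes after the aldolases had negative fold changes and 0 passed the test by either tool. Gapdh (chr6:125161715-125166467), the glyceraldehyde phosphate dehydrogenase often used as a loading control, ranged between 1237 and 1629 CPM with a median of 1373 CPM in Arf6Q67L tumours, against 2017, 1384, 1485 and 1791 CPM in controls 1 to 4. Arf6Q67L tumours 1, 2 and 6 lay below all controls and the others among them, with a log2 fold change of -0.26 (SE 0.13, unadjusted p 0.0730, edgeR adjusted p 0.471; -0.15 without control 1). Pkm (chr9:59656368-59679375), which encodes pyruvate kinase and is spliced into M1 and M2 forms that gene counts cannot separate, ranged between 1998 and 2685 CPM with a median of 2477 CPM in Arf6Q67L tumours, against 3479, 2593, 2448 and 2540 CPM in controls 1 to 4. Control 1 stood apart and the remaining controls lay inside the Arf6Q67L range, a log2 fold change of -0.19 (SE 0.13, edgeR adjusted p 0.615; -0.054 without control 1). Pgk1, the phosphoglycerate kinase, averaged 543 ± 158 CPM in Arf6Q67L tumours and 683 ± 259 CPM in controls, where control 1 reached 1055 CPM, and its log2 fold change of -0.33 (SE 0.26) was -0.040 without that tumour. The triose phosphate isomerase Tpi1, the phosphoglycerate mutase Pgam1 and the enolases Eno1 and Eno2 had log2 fold changes of -0.058, -0.11, -0.057 and -0.12, with standard errors of 0.14, 0.15, 0.10 and 0.38, and all 4 were positive without control 1. Copies of Aldoa, Gapdh, Ldha, Pgam1, Pgk1 and Tpi1 were looked for only by symbols that add -ps or -rs to the parent's name. These copies and a second Aldoa identifier held at most 0.311% of their parent gene's counts. Copies under other names, and any on 1 chromosome that was left out, were not counted. How far reads were shared with those was not tested. Eno1 has a near-identical copy that was not analysed here, so its level is uncertain where reads were shared.

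Lactate dehydrogenase is a tetramer of A subunits, which favour lactate formation, and B subunits, typical of heart. Ldha (chr7:46841475-46855627) ranged between 630 and 919 CPM with a median of 802 CPM in Arf6Q67L tumours, against 1231, 785, 733 and 954 CPM in controls 1 to 4. Only Arf6Q67L tumour 6 lay below all controls, and the log2 fold change was -0.22 (SE 0.16, edgeR adjusted p 0.638; -0.049 without control 1). Ldhb differed widely between tumours of both groups and averaged 37.4 ± 25.0 CPM in Arf6Q67L tumours and 52.0 ± 32.3 CPM in controls, with a log2 fold change of -0.48 (SE 0.61; -0.20 without control 1 and -0.19 without control 3).

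The pyruvate dehydrogenase complex turns pyruvate into acetyl-CoA; Pdha1 and Pdhb encode the alpha and beta subunits of its first enzyme and Dlat the dihydrolipoamide acetyltransferase core. Pdha1 (chrX:160122209-160138413) stood at 152, 189, 143, 134, 146 and 156 CPM in Arf6Q67L tumours 1 to 6, against 126, 121, 119.95 and 113 CPM in controls 1 to 4. Every Arf6Q67L tumour lay above every control. The means were 153.5 ± 19.0 CPM in Arf6Q67L tumours and 119.9 ± 5.01 CPM in controls; the log2 fold change was 0.36 (SE 0.10), with adjusted p-values of 0.283 by edgeR and 0.0403 by DESeq2. The log2 fold change lay between 0.30 and 0.39 with each tumour left out in turn, and it was 0.38 (SE 0.10) with sex as a term for this X-linked gene. Dlat (chr9:50634633-50659780) stood between 64.9 and 83.6 CPM with a median of 73.2 CPM in Arf6Q67L tumours, against 70.6, 54.6, 54.3 and 63.8 CPM in controls 1 to 4. All 6 Arf6Q67L tumours lay above controls 2, 3 and 4, and control 1 lay among them. Its log2 fold change was 0.27 (SE 0.11, unadjusted p 0.0337), with adjusted p-values of 0.393 by edgeR and 0.255 by DESeq2. Pdhb was nearly level between the groups, at 95.8 ± 9.07 CPM in Arf6Q67L tumours and 96.3 ± 6.21 CPM in controls, for a log2 fold change of -0.0066 (SE 0.090). Among the remaining genes of the complex, Dld, its lipoamide dehydrogenase, and Pdhx, its binding protein, had log2 fold changes of 0.030 (SE 0.081) and 0.043 (SE 0.093); they were named after their values were seen. The summed CPM of Pdha1, Pdhb and Dlat lay between 295 and 376 in Arf6Q67L tumours and between 271 and 285 in controls. That sum includes Pdha1, whose groups did not overlap by itself, and leaves out Dld and Pdhx. Dld and Pdhx stood at 122 and 20.7 CPM in Arf6Q67L tumour 3 and at 143 and 24.3 CPM in control 1. With them added, control 1 lay above Arf6Q67L tumour 3, so the groups overlapped.

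**Figure D2:**
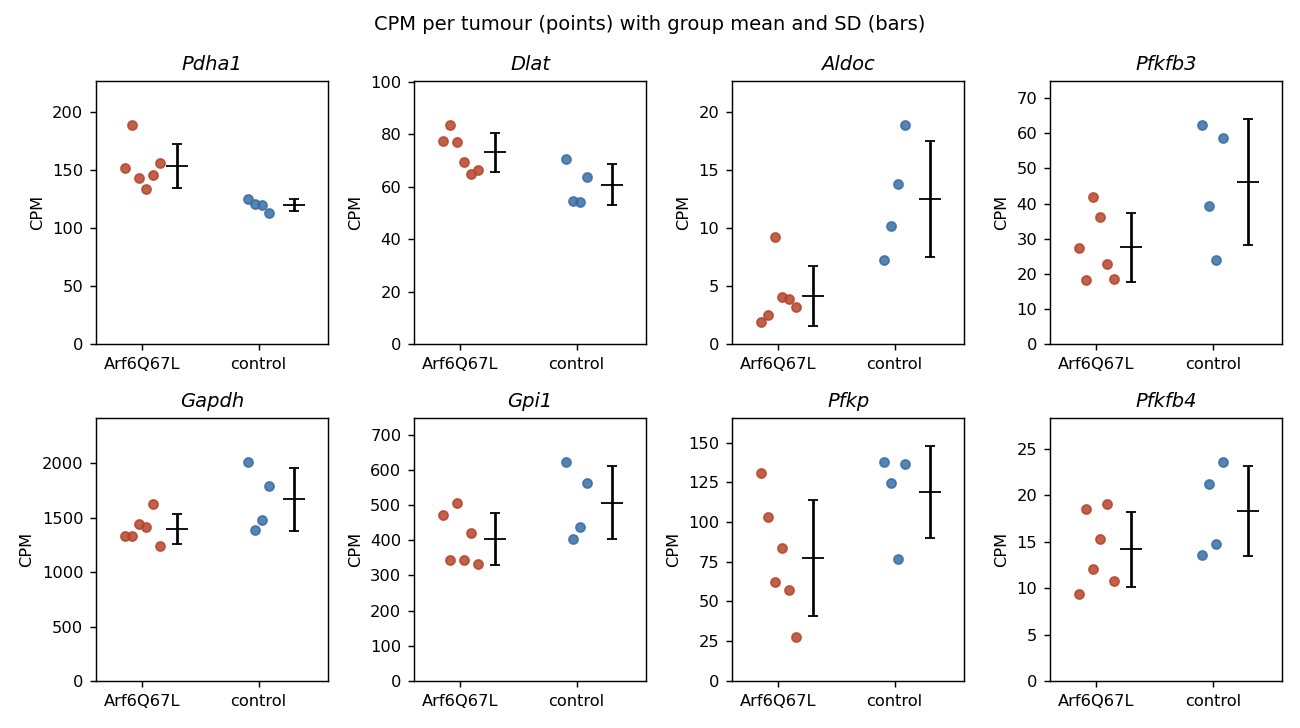
CPM (y axis, from 0) of the 8 genes with the lowest unadjusted p-values, 1 point per tumour, Arf6Q67L tumours (n = 6) left of controls (n = 4), with group mean and SD as a cross and bar. Pdha1 shows no overlap between the groups, 5 of 6 Aldoc points of Arf6Q67L tumours lie below all controls, and the other 6 panels show groups that overlap.

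Pyruvate dehydrogenase kinases inactivate the complex by phosphorylating Pdha1's product, and PDK1 is known as a HIF target while PDK4 responds to fasting and fatty acids. None of the 4 kinase genes passed the test. Pdk1 (chr2:71873224-71903858) ranged between 26.8 and 69.4 CPM with a median of 38.7 CPM in Arf6Q67L tumours, against 90.3, 30.3, 45.9 and 53.5 CPM in controls 1 to 4. Control 1 was highest and Arf6Q67L tumours 3 and 1 came next, so high tumours occurred in both groups; the log2 fold change of -0.31 (SE 0.34, edgeR adjusted p 0.763) was 0.039 without control 1. Pdk4 averaged 40.9 ± 37.1 CPM in Arf6Q67L tumours, where it ranged between 7.69 and 104 CPM, and 36.5 ± 31.2 CPM in controls. Its log2 fold change of 0.16 had an SE of 0.79, the largest among the 32 genes. Pdk2 and Pdk3 had log2 fold changes of 0.23 (SE 0.18) and -0.11 (SE 0.13).

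Monocarboxylate transporters carry lactate across the cell membrane, with Slc16a1 (MCT1) working in both directions and Slc16a3 (MCT4) known for export from glycolytic cells. Slc16a1 averaged 343 ± 105 CPM in Arf6Q67L tumours and 371 ± 97.3 CPM in controls, with a log2 fold change of -0.11 (SE 0.25). Slc16a3 averaged 63.7 ± 26.9 CPM in Arf6Q67L tumours and 89.3 ± 48.7 CPM in controls; the log2 fold change was -0.49 (SE 0.41, edgeR adjusted p 0.687; -0.065 without control 1). Both groups overlapped for each transporter, and the highest Slc16a3 level was again that of control 1, at 157 CPM.

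Levels of different genes were compared per kilobase of merged exon. On that scale Pkm led with a mean of 513 CPM per kb over the 10 tumours, followed by Gapdh at 365, Aldoa at 273, Pgk1 at 267, Ldha at 256, Tpi1 at 216 and Eno1 at 203 CPM per kb. Slc16a1 came next at 80.0 CPM per kb, and Pfkfb1 was lowest at 1.33 CPM per kb. The order depended on the gene length used. With the longest transcript instead, Pkm still led at 1055 CPM per kb and Pfkfb1 was still lowest. Eno1 then came next at 540, followed by Aldoa at 512, Ldha at 467, Gapdh at 458, Tpi1 at 369 and Pgk1 at 328 CPM per kb. Isoenzyme families were limited to members of the 32 genes, so Hk3, for example, was not counted among the hexokinases. In control 4 Hk3 stood at 104 CPM over 3682 bases of merged exon and Hk1 at 184 CPM over 8532 bases. Per kb of merged exon, Hk3 thus lay above Hk1 in that tumour. With the longest transcript, 3219 bases for Hk3 and 4278 bases for Hk1, it lay below Hk1. In most families as limited here 1 gene held most of the RNA in every tumour of both genotypes. Slc2a1 made up 78.3% ± 7.71 of the summed Slc2a1 and Slc2a3 RNA per kb in Arf6Q67L tumours and 83.3% ± 10.3 in controls (SD, n = 6 and 4), and it led in all 10 tumours. Hk1, Aldoa, Eno1, Ldha and Slc16a1 also led their families, as limited here, in all 10. Hk1 held 79.4% ± 8.33 of the summed Hk1 and Hk2 RNA in Arf6Q67L tumours and 75.0% ± 4.51 in controls. Ldha held 90.8% ± 6.67 of the summed Ldha and Ldhb RNA in Arf6Q67L tumours and 89.5% ± 6.40 in controls. Ldhb's share was uneven between tumours, between 2.11% and 19.8%.

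Per kb of merged exon, the leader varied in 3 families. Pfkl led the phosphofructokinases in 9 tumours, with 48.5% ± 5.34 in Arf6Q67L tumours and 51.7% ± 7.88 in controls, and Pfkm led in 1 (Arf6Q67L tumour 5). That depended on the gene length. With the longest transcript, 3730 bases for Pfkl and 2879 bases for Pfkm, Pfkl led in every tumour. Among the PFKFB enzymes Pfkfb3 led in 8 tumours and Pfkfb4 in 2, and Pfkfb3 held 35.9% ± 10.4 in Arf6Q67L tumours and 45.1% ± 10.6 in controls. Among the kinases Pdk4 led in 5 tumours, Pdk3 in 4 and Pdk1 in 1, and the share of Pdk4 ran from 10.6% to 62.7%. These counts also depended on the gene length: in control 3 Pdk4 led with merged exons and Pdk1 with the longest transcript. The proportions of 12 isoenzyme pairs were compared per tumour as log2 ratios by an exact two-sided permutation test, in which 210 assignments of the genotypes are possible and the p cannot fall under 0.00476. The groups overlapped for all 12 ratios. The largest difference in means was that of Aldoc to Aldoa, with a mean log2 ratio of -7.84 ± 0.814 in Arf6Q67L tumours and -6.31 ± 0.727 in controls, a difference of -1.53 (exact p 0.0238, 0.286 after Benjamini-Hochberg adjustment over the 12 ratios), lower than every control in 5 of 6 Arf6Q67L tumours. The other 11 ratios had exact p-values of at least 0.205 and adjusted values of at least 0.547. Pfkm to Pfkl, for example, had a mean log2 ratio of -0.29 ± 0.370 in Arf6Q67L tumours and -0.70 ± 0.548 in controls, a difference of 0.42 that was 0.15 without control 1.

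**Figure D3:**
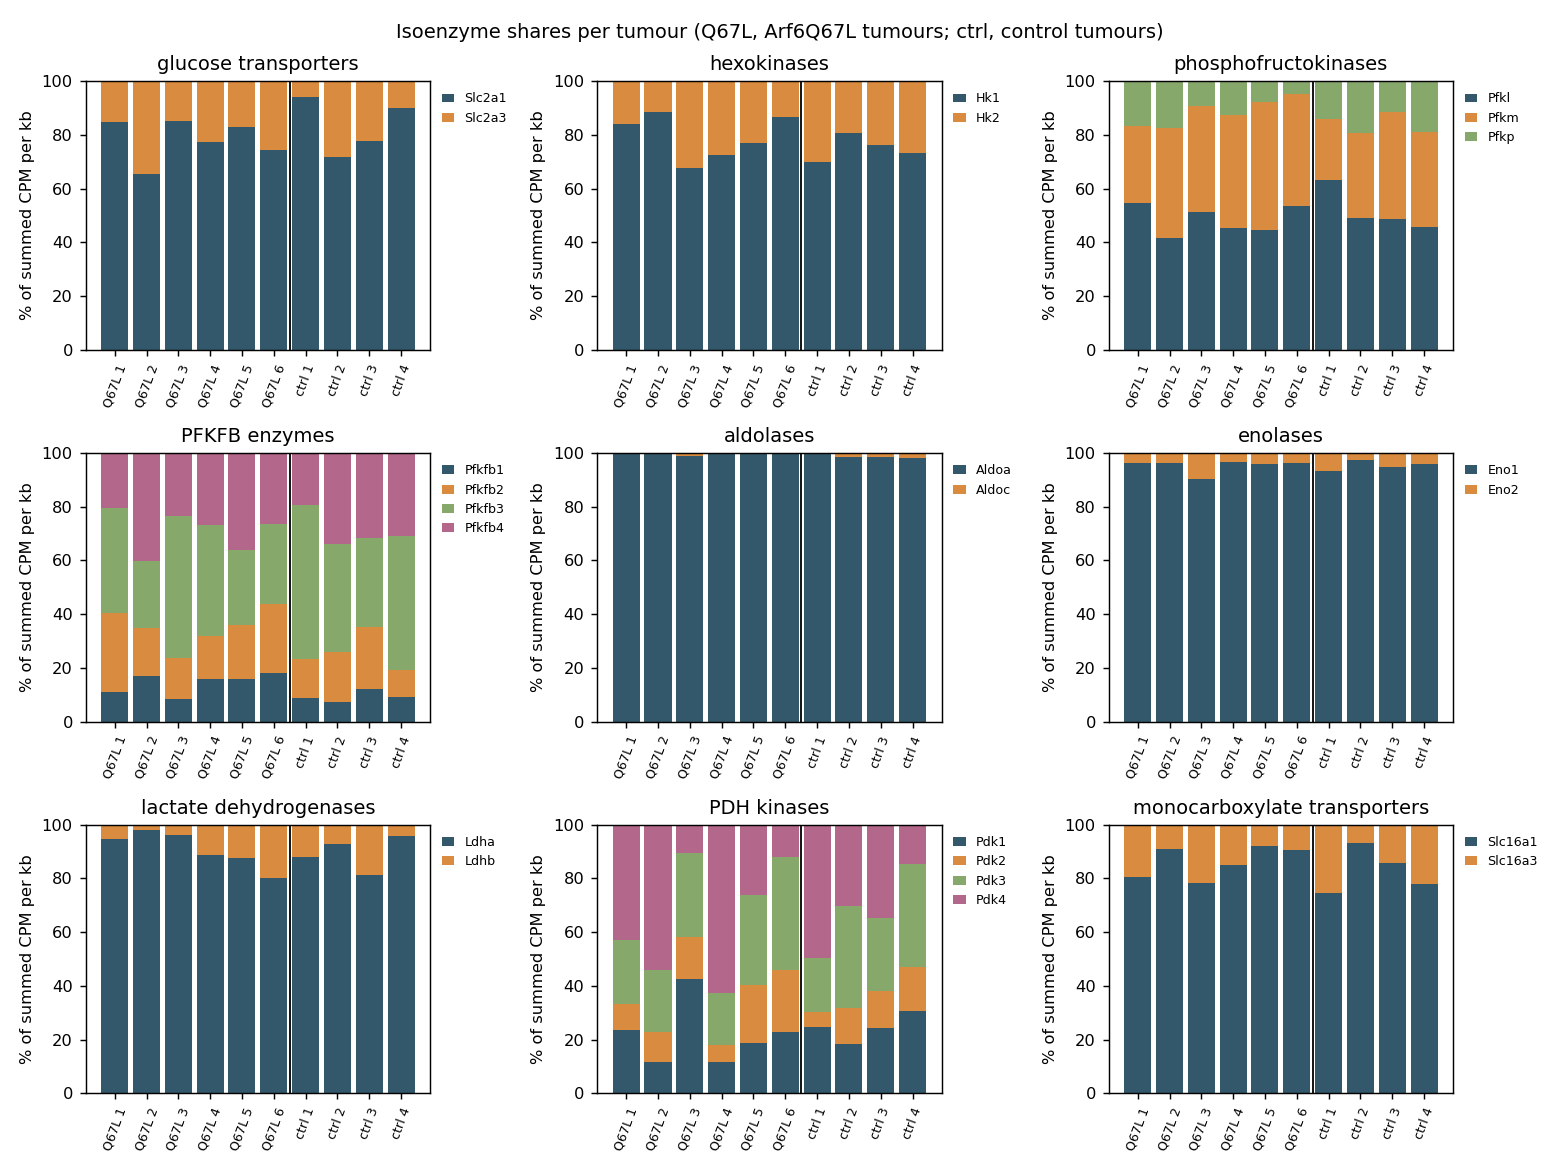
Share of each isoenzyme in its family's summed CPM per kb of merged exon (y axis, percent) in each tumour, with Arf6Q67L tumours (Q67L) left of the black line and controls (ctrl) right of it. The same gene fills most of the bar in all 10 tumours for glucose transporters, hexokinases, aldolases, enolases, lactate dehydrogenases and monocarboxylate transporters, while phosphofructokinases, PFKFB enzymes and PDH kinases are mixed.

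A few tumours stood at the ends of the range for many of the 32 genes at the same time. Control 1 had the highest level of 17 of the 32 genes and lay above the 10-tumour mean for 25 of them. Arf6Q67L tumour 6 had the lowest level of 14 and lay above the mean for 7. Summed over the 32 genes, CPM lay between 8190 and 10773 in Arf6Q67L tumours and between 9722 and 14223 in controls, where control 1 held the highest sum. Hypoxia-inducible genes outside glycolysis, 14 genes such as Vegfa, Car9 and Bnip3, summed to between 510 and 1729 CPM in Arf6Q67L tumours and between 951 and 2123 CPM in controls. Control 1 was highest and Arf6Q67L tumour 6 lowest in that sum as well, and whether oxygen supply differed between tumours was not tested.

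**Figure D4:**
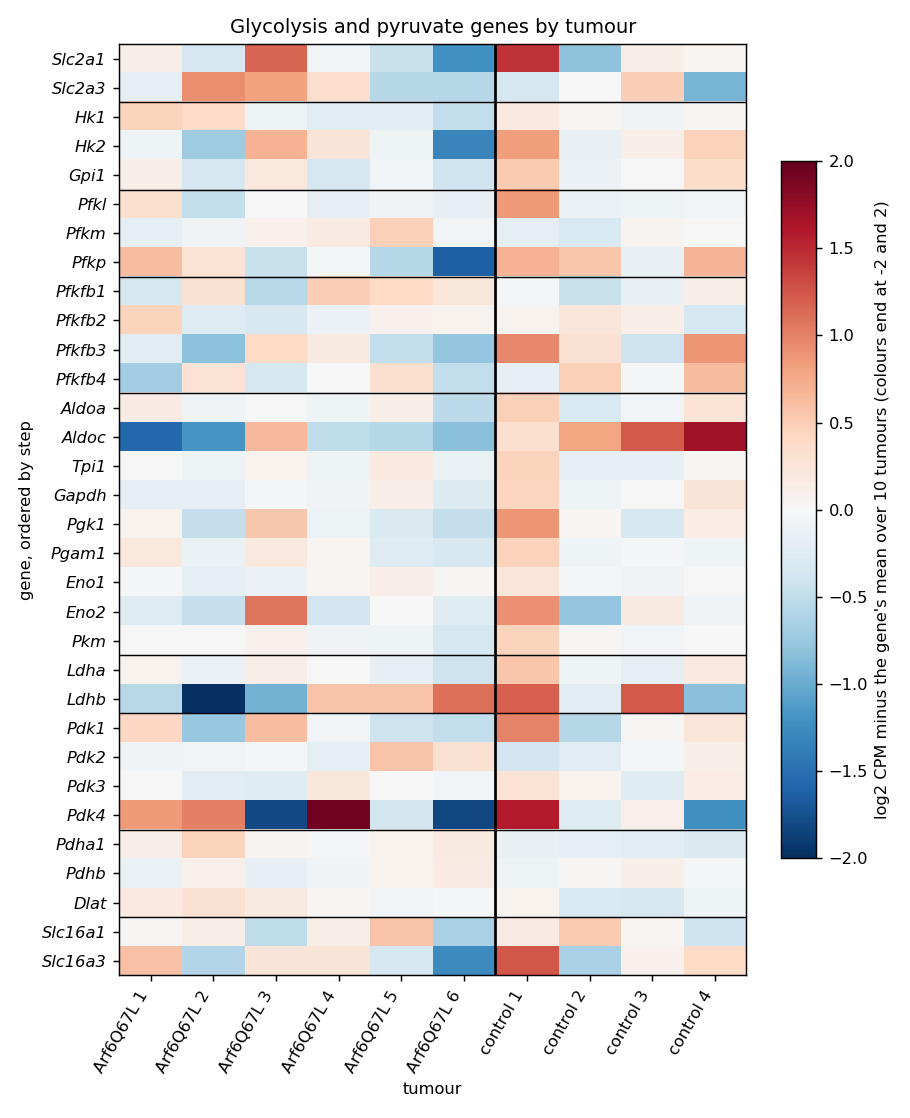
Deviation of each of the 32 genes (rows, in pathway order) from its own mean over 10 tumours, in log2 CPM, for each tumour (columns, Arf6Q67L left of control). Control 1 is above the mean for 25 of the 32 genes and Arf6Q67L tumour 6 for 7 of them.

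Relations between genes across the 10 tumours were examined for 6 pairs on log2 CPM, with permutation p-values from 100000 resamples and adjustment over the 6. The levels share library scaling, and 4 of the 6 relations share Pgk1 on the x axis. Ldha followed Pgk1 with Pearson's r = 0.92 and Spearman's rho = 0.94 (permutation p 0.00019 and 0.00025, r adjusted p 0.00114, n = 10), and r was 0.84 without Arf6Q67L tumour 3 and control 1, the tumours farthest from the median, and 0.84 within the 6 Arf6Q67L tumours. Pdk1 followed Pgk1 with r = 0.87 and rho = 0.81 (permutation p 0.00086 and 0.0072, r adjusted p 0.00172), with r = 0.65 without those tumours and 0.95 within Arf6Q67L tumours. Slc16a3 followed Pgk1 with r = 0.78 and rho = 0.82 (permutation p 0.00727 and 0.00608, r adjusted p 0.00872), with r = 0.67 without those tumours and 0.75 within Arf6Q67L tumours. Slc2a1 followed Pgk1 with r = 0.85 and rho = 0.75 (permutation p 0.00248 and 0.0179, r adjusted p 0.00372). Without those tumours, which had the highest Pgk1 levels, r was 0.43, so its strength over all 10 rested in part on them. With 1 tumour left out at a time r lay between 0.73 and 0.91. Within Arf6Q67L tumours, tumour 3 included, r was 0.93. Pgk1 in turn followed the mean of the 14 hypoxia-inducible genes with r = 0.90 and rho = 0.78 (permutation p 0.00038 and 0.0104, r adjusted p 0.00114), with r = 0.80 without Arf6Q67L tumour 6 and control 1 and 0.92 within Arf6Q67L tumours. Pfkm and the mean of the skeletal muscle markers had r = 0.60 and rho = 0.50 (permutation p 0.0592 and 0.144, r adjusted p 0.0592), r = 0.68 without controls 2 and 3 and 0.72 within Arf6Q67L tumours, and did not pass the threshold. The 4 controls are too few for a value of their own.

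**Figure D5:**
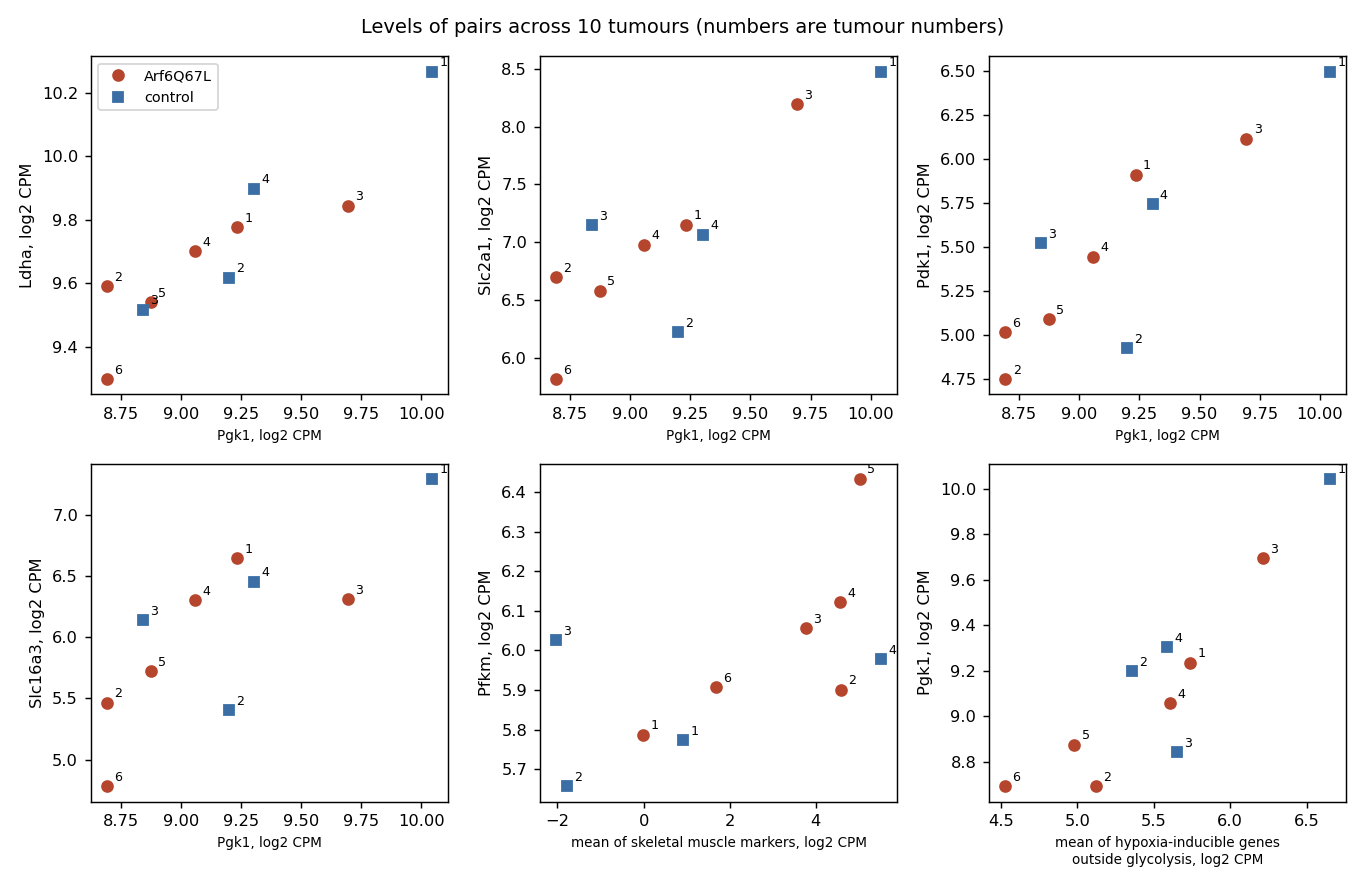
Log2 CPM of pairs of genes, or of a gene and the mean of a marker list, across the 10 tumours (points numbered by tumour; circles Arf6Q67L, squares control). Ldha, Slc2a1, Pdk1 and Slc16a3 are plotted on Pgk1, Pfkm on the skeletal muscle markers and Pgk1 on the hypoxia-inducible genes; control 1 lies at the upper right of each panel with Pgk1.

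Other genes of the pathway were examined from lists that the 32 do not include. Of 36 further glycolysis and pyruvate genes 26 could be tested, with 12 positive and 14 negative log2 fold changes and a median of -0.076, and 0 passed edgeR's test. DESeq2 called 1 of the 26 higher and 1 lower, against 0.966% and 1.42% of all genes. The one called higher was Tigar, a phosphatase that removes fructose 2,6-bisphosphate and so slows glycolysis, at 8.18 ± 0.327 CPM in Arf6Q67L tumours and 5.50 ± 1.45 CPM in controls, above every control in 6 of 6 Arf6Q67L tumours (1.15% of all genes were higher without overlap), with a log2 fold change of 0.57 (SE 0.18) and adjusted p-values of 0.314 by edgeR and 0.0329 by DESeq2. The one called lower was Hk3, a hexokinase of myeloid cells, at 11.5 ± 6.55 CPM in Arf6Q67L tumours and 44.9 ± 42.0 CPM in controls, with a log2 fold change of -1.97 (SE 0.62) and adjusted p-values of 0.309 by edgeR and 0.0481 by DESeq2. Hk3 was highest in controls 4 and 2, at 104 and 44.7 CPM, the tumours in which the 11 macrophage markers also summed highest, at 4517 and 3011 CPM; their part in the result was not tested. Slc2a6, a transporter known from macrophages, had a log2 fold change of -2.07 (SE 0.73, edgeR adjusted p 0.351) and was likewise highest in control 4, at 18.6 CPM.

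Of 8 pentose phosphate genes, which divert glucose 6-phosphate to make NADPH and ribose, 2 had positive and 6 negative log2 fold changes, with a median of -0.056. G6pdx, the entry enzyme, averaged 101 ± 8.30 CPM in Arf6Q67L tumours and 119.6 ± 14.1 CPM in controls and lay below all controls in 5 of 6 Arf6Q67L tumours, a log2 fold change of -0.24 (SE 0.096, unadjusted p 0.0298, edgeR adjusted p 0.384). Rpia and Rpe, an isomerase and an epimerase of ribulose 5-phosphate, had log2 fold changes of -0.40 (SE 0.19) and -0.14 (SE 0.13). Of 7 gluconeogenic genes 5 could be tested, 1 with a positive and 4 with negative fold changes, and a median of -0.070. Pck1, a carboxykinase of liver and fat, reached 12.3 CPM in control 4 and at most 0.685 CPM in any other tumour, and the adipocyte markers summed to 242 CPM in control 4 and to at most 76.4 CPM elsewhere; their part in the result was not tested. Fbp2, the muscle fructose bisphosphatase, reached 32.7 CPM in Arf6Q67L tumour 2 and at most 1.97 CPM elsewhere. Pck2, the mitochondrial carboxykinase, had a log2 fold change of -0.37 (SE 0.16, edgeR adjusted p 0.407).

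The hypoxia-inducible genes outside glycolysis had 1 positive and 13 negative log2 fold changes with a median of -0.33. Over all genes tested 49.7% were positive and the median was -0.0018. Of the 14, 0 passed the test of either tool. Their mean log2 CPM was 6.65 in control 1, against 5.36, 5.65 and 5.59 in controls 2 to 4 and between 4.53 and 6.21 in Arf6Q67L tumours. The balance of signs without control 1 is not given here. The 3 of lowest p were Car9, a carbonic anhydrase, at -0.87 (SE 0.41, edgeR adjusted p 0.451), Ero1l, an endoplasmic reticulum oxidase, at -0.90 (SE 0.55), and Adm, a vasodilator peptide, at -0.95 (SE 0.59). The 8 regulators of the HIF pathway had 4 positive and 4 negative log2 fold changes with a median of -0.013. Vhl, which marks HIF for degradation, had a log2 fold change of -0.19 (SE 0.11), Hif1an, an asparagine hydroxylase that blocks HIF activity, one of 0.12 (SE 0.087) and Epas1, which encodes HIF-2 alpha, one of -0.35 (SE 0.26), with edgeR adjusted p-values between 0.543 and 0.644.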

How the data were processed

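Polyadenylated RNA of 10 tumours was extracted with a Qiagen kit and made into stranded TruSeq libraries, per the labels' protocols. The authors deposited raw counts per Ensembl gene, and every column matched 1 sample's library identifier, with 0 columns left over. The submitters' processing notes name GRCm38 as genome build and, as tools, featureCounts 1.5.1, STAR 2.5.2b and DESeq2 1.18.0; the strand setting and the handling of multiply matching reads were not given in the sources used here. Library numbers follow genotype, so effects of library order and of genotype cannot be told apart. No pair of tumours within a group agreed within sampling noise (lowest chi-square per gene 75.5).

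Symbols and coordinates came from a GENCODE annotation of GRCm38 (52489 of 52636 identifiers, 99.7%), and promoter windows from RefSeq (31 of the 32 genes matched). Genes were tested for genotype with edgeR 4.0.16 (R 4.3.3), using TMM factors, filterByExpr at a minimum count of 10, robust glmQLFit and glmQLFTest, and p-values were adjusted by Benjamini-Hochberg over 17286 genes, with a threshold of 0.05. Standard errors divide the log2 fold change by the square root of F. CPM use TMM factors, and log2 CPM a prior count of 2. Isoenzyme ratios add 0.5 to each count. Both the edgeR and the DESeq2 steps were tested on simulated data with 2-fold and 4-fold changes. There DESeq2 recovered more of the changed genes than edgeR but made more false calls, and edgeR missed most of the 2-fold changes. Alternatives were DESeq2 1.42.0, RLE factors, limma 3.58.1 (voom with quality weights), no filter, terms for skeletal muscle markers and sex, each tumour left out in turn, another pseudocount and transcript length.

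Tumours are numbered in accession order within a group. Per-tumour values or ranges are given for the 8 genes of lowest p and for Slc2a1, Hk2, Pkm, Ldha and Pdk1, and up to 3 genes of lowest p are named from each further pathway list; melanocyte genes, Dld and Pdhx were named after values were seen. The 32 genes and all lists were chosen with earlier results of these data known.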

Additional observations from a re-analysis of the deposited data

Results flagged for a closer look

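Of 64 combinations of a gene and a genotype, 6 held a tumour whose gap to the nearest other tumour of its group was unusually wide for the group's range (Dixon's test at 95%); chance alone gives about 1 in 20. In Arf6Q67L tumour 3, Slc2a1 stood at 292 CPM, with the next Arf6Q67L tumour at 142 CPM, Eno2 at 93.2 CPM with the next at 44.6 CPM, and Aldoc at 9.23 CPM with the next at 4.11 CPM. In control 1, Pkm stood at 3479 CPM with the next control at 2593 CPM, Pfkl at 307 CPM with the next at 163 CPM, and Pgam1 at 172 CPM with the next at 121 CPM. All 6 were the highest of their group. These tumours also had the highest mean log2 CPM of the hypoxia-inducible genes, 6.21 in Arf6Q67L tumour 3 and 6.65 in control 1; the part of hypoxia in the result was not tested.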

How the results depend on the processing

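No paired analysis was possible because the labels give no replicate numbers that tumours of the groups share. Over all genes edgeR called 0 higher and 0 lower. DESeq2 called 167 higher and 246 lower, voom 1 and 1, and the fit with muscle markers as a term 3 and 39. With each tumour left out in turn 0 to 1 genes were higher (1 without control 1) and 0 lower. Of the 32 genes DESeq2 called 1 higher (Pdha1) and 1 lower (Aldoc), and every other alternative called 0; adjusted p-values over the alternatives lay between 0.0403 and 0.539 for Pdha1 and between 0.0230 and 0.4999 for Aldoc. With sex as a term, 10 of the 32 were lower at an unadjusted p under 0.05 (5.93% of all genes), against 2 without it (7.05% of all genes). In that fit 8 of the 32 log2 fold changes were positive and 24 negative. Those of Slc2a1, Hk2, Pgk1 and Ldha were -0.62, -0.70, -0.48 and -0.30. Those of Pdk1 and Slc16a3 were -0.54 and -0.75. All of these named values were lower than in the main fit. The sign of the log2 fold change was kept by 20 of the 32 genes in all 16 alternatives, and 29 of 512 recomputed values had the opposite sign. With 1 tumour left out, log2 fold changes ran from -0.74 to 0.22 for Slc2a1, -0.15 to 0.045 for Hk1, -0.37 to 0.017 for Pfkl, -0.14 to 0.048 for Pfkfb2, -0.13 to 0.11 for Tpi1, -0.16 to 0.044 for Pgam1, -0.091 to 0.020 for Eno1, -0.43 to 0.24 for Eno2, -0.51 to 0.039 for Pdk1, -0.37 to 0.94 for Pdk4, -0.040 to 0.039 for Pdhb and -0.26 to 0.054 for Slc16a1. Pfkfb2 was 0.19 with muscle markers as a term, Tpi1 0.012 by voom, and Pdhb 0.0048 by DESeq2, 0.0045 with RLE factors, 0.0068 without a filter, 0.0068 with muscle markers and 0.041 with sex. Differences of mean log2 ratios with 1 tumour left out ran from -0.31 to 0.17 for Eno2 to Eno1, -0.81 to 0.30 for Pdk4 to Pdk2 and -0.79 to 0.023 for Ldhb to Ldha. Without control 1 the difference was 0.17 for Slc2a3 to Slc2a1 (0.64 with it), 0.031 for Pfkfb4 to Pfkfb3 (0.34), -0.14 for Pdk1 to Pdk2 (-0.50), -0.16 for Pdk3 to Pdk2 (-0.32) and -0.027 for Slc16a3 to Slc16a1 (-0.32). The relation of Pfkm to the muscle markers passed the threshold without TMM factors (r = 0.62), and over tumours left out, a check chosen after seeing the data, its r ran from 0.47 to 0.77 and that of Slc16a3 to Pgk1 from 0.63 (without control 1, past the threshold no longer) to 0.83. With the longest transcript as gene length the share of Hk1 was 86.3% and that of Pfkl 58.3%, against 77.6% and 49.8% over all 10 tumours with merged exons. The cause of these changes was not tested. Genes such as Aldoc and Pfkfb1, at a few CPM, rest on fewer counts than the rest.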
